A study of Mus musculus with 26 samples.

Results

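*Bach2* and the genes of its network were followed across 10 RNA-seq libraries of mouse embryonic fibroblasts (MEFs), heart and liver. The members were *Bach2*, its paralog *Bach1*, the small Maf genes *Maff*, *Mafg* and *Mafk*, the activator gene *Nfe2l2*, which encodes NRF2, and *Hmox1*, a gene that BACH1 represses. They were chosen by their symbol, and all 7 were found, each as 1 row, among 52454 gene symbols. *Bach2* itself was selected on its level in these data: it was higher with GSK126 in both MEF genotypes and higher in the heart labelled *Dnmt3a* KO, so these 3 comparisons are described for *Bach2* and support nothing.

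BACH1 and BACH2 belong to the cap'n'collar family of basic leucine zipper proteins. They cannot bind DNA alone and pair with a small Maf protein, and the small Maf proteins carry no activation domain of their own. On antioxidant response elements, BACH-Maf pairs repress and NRF2-Maf pairs activate the same genes, which make glutathione, reduce quinones and break down heme. Heme binds BACH1 and takes it off the DNA, which is how *Hmox1*, the heme oxygenase gene, responds to heme. BACH2 is best known in B cells, where it holds off plasma cell differentiation.

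All cells and tissues came from embryos at E14.5, and each condition had 1 library. MEFs and organs labelled *Dnmt3a* WT or *Dnmt3a* KO came from crosses of heterozygous B6;129S4-Dnmt3a tm1Enl mice and are recorded as C57BL6 males. These MEFs, at passage 1, were kept for 2 days with DMSO or with 10 μM GSK126, an inhibitor of the Polycomb methyltransferase EZH2. Heart and liver labelled WT carry embryo number 4, and those labelled *Dnmt3a* KO carry number 25. The 2i-MEFs were female F1 (129X1/SvJ and MSM/Ms) fibroblasts of chimeric embryos, made from ES cells kept in 2i/L medium in which *Dnmt3a* or *Dnmt3b* had been disrupted by CRISPR/Cas9. They had been selected with G418 for 7 days and sorted to remove host cells, and no sort is described for the MEFs from *Dnmt3a* crosses. WT 2i-MEFs were not analysed here, so folds of 2i-MEFs are between the *Dnmt3a* KO and *Dnmt3b* KO libraries. Their levels stand beside those of the other fibroblasts as values only, since strain, sex and sorting differ.

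Expression is given as FPKM, in which the fragments of a gene are divided by its transcript length and by the mapped reads, so that levels of different genes can be compared. From the steps of low FPKM values, between 9173825 reads (*Dnmt3b* KO 2i-MEFs) and 26225818 reads (WT liver) were estimated to be mapped per library. Intervals below are 95% Poisson intervals of a level or exact 95% intervals of a fold. They were computed with the shortest annotated coding transcript, which gives the widest interval, and cover counting error only. With 1 library per condition no difference has a replicate check, and p-values are not given. In 2i-MEFs, *Dnmt3a* stood at 4.21 FPKM where it had been disrupted and at 23.9 FPKM where *Dnmt3b* had been. In MEFs from crosses, it was at 26.1 FPKM (DMSO) and 19.3 FPKM (GSK126) in WT, and at 85.7 and 84.5 FPKM in the libraries labelled *Dnmt3a* KO. It was at 55.0 FPKM in WT heart and 125 FPKM in the heart labelled *Dnmt3a* KO, and at 53.5 and 12.7 FPKM in the respective livers. The level thus goes against the label in these MEFs and in heart. The gene-level value also counts transcripts of a disrupted allele, so it cannot check the labels of the crosses. These libraries are therefore called KO-labelled, which stands for a label of *Dnmt3a* KO. Fibroblast markers (8 genes) summed to between 6160 and 20700 FPKM in the 6 fibroblast libraries, cardiomyocyte markers (8 genes) to 22600 and 24600 FPKM in heart, and hepatocyte markers (8 genes) to 14300 and 23700 FPKM in liver. Liver held erythroid markers as well, at 58900 and 86900 FPKM in WT and KO-labelled tissue. The macrophage markers (9 genes) summed to between 1360 and 1940 FPKM in MEFs from crosses, with *Lyz2* at 835 and *C1qa* at 227 FPKM in WT MEFs with DMSO. In sorted 2i-MEFs the same markers summed to 30.5 FPKM (*Dnmt3a* KO) and 17.1 FPKM (*Dnmt3b* KO). In such bulk samples, fewer cells of a type and less RNA per cell cannot be told apart.

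The *Bach2* row spans chr4:32238804-32586108 on the plus strand (mm10), and GENCODE M21 annotates 7 transcripts, 3 of them coding, from 3462 to 8882 bases long. The start of the row and the start in RefSeq differ, and the 250 bases before each are shown because their CpG content differs. The window before the row's start (chr4:32238554-32238803) holds 35 CpG sites, and 97.4% of 32851 RefSeq promoter windows of this length hold as many or fewer. The window before the RefSeq start (chr4:32417185-32417434) holds 7 CpG sites, next to a median of 6. FPKM of the gene row does not separate the starts. The sequences are from GRCm38, 5′ to 3′ on the gene's strand.
*Bach2*, start of the gene row: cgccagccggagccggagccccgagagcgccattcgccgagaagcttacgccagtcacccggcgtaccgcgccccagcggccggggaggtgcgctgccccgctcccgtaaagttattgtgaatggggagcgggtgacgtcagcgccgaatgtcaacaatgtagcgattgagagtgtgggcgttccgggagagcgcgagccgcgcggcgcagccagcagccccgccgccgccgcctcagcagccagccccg
*Bach2*, RefSeq start: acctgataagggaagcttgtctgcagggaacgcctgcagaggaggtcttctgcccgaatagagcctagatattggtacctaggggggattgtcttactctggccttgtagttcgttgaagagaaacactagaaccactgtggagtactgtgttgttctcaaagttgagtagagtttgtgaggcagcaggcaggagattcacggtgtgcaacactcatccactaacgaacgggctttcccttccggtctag

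Promoter windows of 6 members were in the RefSeq table for GRCm38, and *Hmox1* was not among them. Each window was searched on both strands for TGACNNNGC, the core of the antioxidant response element, which 10.2% of all windows hold. It was found once before 1 of 3 *Maff* starts, and once each before *Mafg*, *Mafk* and *Nfe2l2*. Neither *Bach2* window, the *Bach1* window nor the other *Maff* windows hold these letters. The AP-1 site TGANTCA (in 6.75% of all windows, searched on both strands) was in no window of a member. The windows that hold the motif are shown, with the match in capitals. They include *Nfe2l2*, whose level differed little with GSK126. It describes the letters of these windows and no binding.
*Maff*, chr15:79346371-79346620, plus strand: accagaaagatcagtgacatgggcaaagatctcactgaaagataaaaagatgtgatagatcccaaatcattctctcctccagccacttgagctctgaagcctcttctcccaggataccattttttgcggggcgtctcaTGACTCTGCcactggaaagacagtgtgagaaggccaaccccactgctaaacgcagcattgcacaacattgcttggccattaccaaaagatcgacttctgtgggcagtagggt
*Mafg*, chr11:120633548-120633797, minus strand: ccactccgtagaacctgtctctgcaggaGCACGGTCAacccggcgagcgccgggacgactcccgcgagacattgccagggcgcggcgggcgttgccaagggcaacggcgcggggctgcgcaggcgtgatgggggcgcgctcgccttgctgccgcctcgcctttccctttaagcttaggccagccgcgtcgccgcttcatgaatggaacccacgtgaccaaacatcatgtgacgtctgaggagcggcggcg
*Mafk*, chr5:139791286-139791535, plus strand: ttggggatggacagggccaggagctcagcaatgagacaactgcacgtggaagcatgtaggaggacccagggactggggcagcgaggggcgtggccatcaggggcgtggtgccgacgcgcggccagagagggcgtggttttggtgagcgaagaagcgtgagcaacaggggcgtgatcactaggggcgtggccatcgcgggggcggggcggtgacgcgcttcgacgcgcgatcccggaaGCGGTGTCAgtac
*Nfe2l2*, chr2:75704664-75704913, minus strand: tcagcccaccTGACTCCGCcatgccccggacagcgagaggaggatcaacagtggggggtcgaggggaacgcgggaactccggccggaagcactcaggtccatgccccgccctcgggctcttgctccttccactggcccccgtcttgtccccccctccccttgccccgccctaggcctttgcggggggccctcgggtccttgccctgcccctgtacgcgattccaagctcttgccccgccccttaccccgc

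*Bach2* was the member with the lowest level in every library except KO-labelled heart. Its span was the widest, 14.4-fold from the lowest to the highest library, next to 12.8-fold for *Hmox1*. Both ends of the *Bach2* span, KO-labelled MEFs with DMSO and KO-labelled heart, served to select *Bach2*, so this rank only describes it. With DMSO, WT MEFs were at 0.657 FPKM (interval 0.467 to 0.898), and with GSK126 they were at 2.47 FPKM (2.09 to 2.89). KO-labelled MEFs were at 0.518 FPKM (0.375 to 0.698) with DMSO and at 2.97 FPKM (2.58 to 3.41) with GSK126. Both libraries with GSK126 were thus above both with DMSO, by 3.75-fold in WT and 5.74-fold in KO-labelled ones. These numbers rest on 39 and 156 reads in WT, and on 43 and 205 reads in the others, counted on the shortest coding transcript. In 2i-MEFs, which had no inhibitor, the *Dnmt3a* KO library held 1.62 FPKM (1.23 to 2.1) and the *Dnmt3b* KO library 1.29 FPKM (0.917 to 1.76). Heart held more, with 3.15 FPKM (2.72 to 3.62) in WT and 7.47 FPKM (6.73 to 8.26) in KO-labelled tissue. Liver held little, with 0.951 FPKM (0.755 to 1.18) in WT and 0.557 FPKM (0.409 to 0.741) in KO-labelled tissue. Ordered by level, KO-labelled heart stood alone, and from WT heart downwards each library's interval overlapped that of the next.

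**Figure D1:**
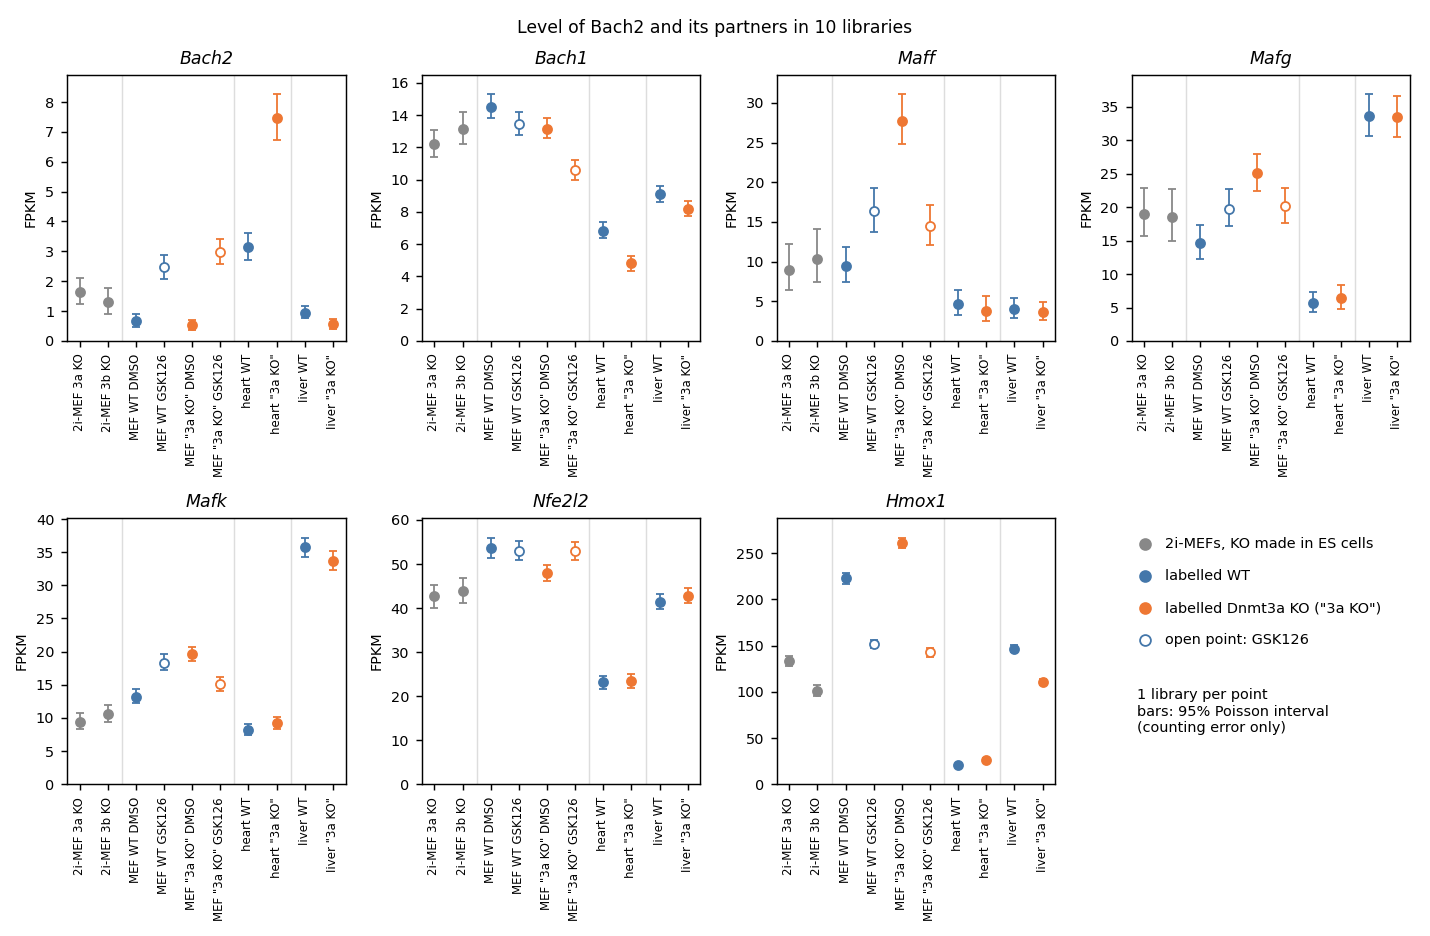
Level of each member (FPKM, linear axis from 0) in the 10 libraries, 1 point per library with its 95% Poisson interval for counting error; blue is labelled WT, orange KO-labelled, grey 2i-MEFs, and open points had GSK126. *Bach2* is at 2.47 and 2.97 FPKM in the MEFs with GSK126 and at 7.47 FPKM in KO-labelled heart, while *Nfe2l2* stays between 23.1 and 53.7 FPKM.

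*Bach1* (chr16:87698945-87733346, plus strand), the widely expressed repressor of *Hmox1*, spanned 3.02-fold across the libraries. It was at 12.2 and 13.1 FPKM in *Dnmt3a* KO and *Dnmt3b* KO 2i-MEFs, at 14.53 and 13.5 FPKM in WT MEFs with DMSO and GSK126, and at 13.2 and 10.6 FPKM in KO-labelled ones. Heart was at 6.84 and 4.82 FPKM in WT and KO-labelled tissue, and liver at 9.11 and 8.19 FPKM. The paralogs were therefore ordered *Bach1* over *Bach2* in all libraries but one. In WT MEFs *Bach2* made up 4.33% of the summed FPKM of *Bach1* and *Bach2* with DMSO and 15.5% with GSK126. In KO-labelled MEFs, it made up 3.79% and 21.9%. Its share was 31.5% in WT heart and 60.8% in KO-labelled heart, where *Bach1* was 0.645 times *Bach2*. The shares in these MEFs and in heart contain the levels on which *Bach2* was selected, so they only describe it. In liver the share was 9.45% in WT and 6.37% in KO-labelled tissue.

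The small Maf genes are the obligate partners of both BACH proteins and of NRF2. *Maff* lies at chr15:79347541-79359072 (plus strand), *Mafg* at chr11:120625117-120633600 (minus strand) and *Mafk* at chr5:139791513-139802653 (plus strand). *Maff*, the inducible one of the 3, was at 9.43 FPKM in WT MEFs with DMSO and 16.3 FPKM with GSK126, but at 27.8 FPKM in KO-labelled MEFs with DMSO and 14.49 FPKM with GSK126. *Mafg* was at 14.7 and 19.8 FPKM in WT MEFs with DMSO and GSK126, and at 25.1 and 20.1 FPKM in KO-labelled MEFs. *Mafk* was at 13.2 and 18.3 FPKM in WT MEFs, and at 19.6 and 15.1 FPKM in KO-labelled MEFs. For all 3 genes the KO-labelled library with DMSO was the highest of these 4, and WT with DMSO the lowest. Summed, the small Maf genes were at 37.3 FPKM in WT MEFs with DMSO, 54.5 FPKM in WT with GSK126, 72.6 FPKM in KO-labelled ones with DMSO and 49.7 FPKM with GSK126. The *Dnmt3a* KO and *Dnmt3b* KO 2i-MEFs summed to 37.5 and 39.6 FPKM. Heart summed to only 18.6 FPKM in WT and 19.4 FPKM in KO-labelled tissue, and liver to 73.4 and 70.8 FPKM.

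The share of each small Maf gene differed by tissue. *Maff* made up 25.3% of the sum in WT MEFs with DMSO and 38.3% in KO-labelled ones with DMSO, and 5.45% in WT liver and 5.11% in KO-labelled liver. Liver used *Mafg* and *Mafk* in near equal parts, with 45.9% and 48.7% in WT. *Mafk* led in heart, with 44.5% in WT and 47.4% in KO-labelled tissue. In 2i-MEFs *Mafg* led, with 50.8% in *Dnmt3a* KO and 46.9% in *Dnmt3b* KO.

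**Figure D2:**
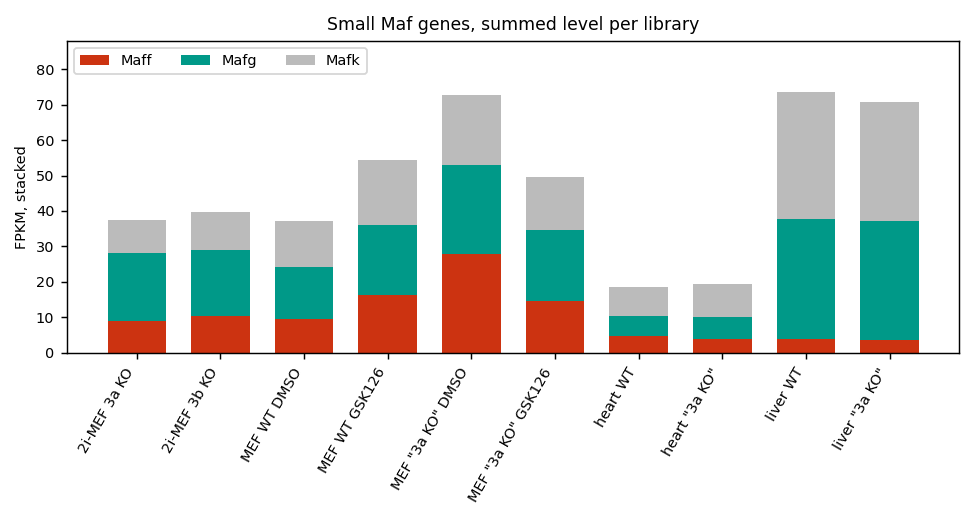
Stacked FPKM of *Maff*, *Mafg* and *Mafk* in each library (bars start at 0, 1 library per bar, no error bars). The total is 72.6 FPKM in KO-labelled MEFs with DMSO, against 37.3 FPKM in WT MEFs with DMSO, and *Maff* is 27.8 FPKM of the former.

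*Nfe2l2* (chr2:75675513-75704641, minus strand), the activator that competes with BACH1 for the small Maf proteins, was the steadiest member, with a span of 2.32-fold. It was at 42.7 and 43.9 FPKM in *Dnmt3a* KO and *Dnmt3b* KO 2i-MEFs, at 53.7 and 53.0 FPKM in WT MEFs with DMSO and GSK126, and at 48.0 and 53.0 FPKM in KO-labelled MEFs. WT heart was at 23.1 FPKM and KO-labelled heart at 23.3 FPKM, and liver was at 41.4 and 42.8 FPKM. Over *Bach1*, it was between 3.34-fold (*Dnmt3b* KO 2i-MEFs) and 5.23-fold (KO-labelled liver) higher in all 10 libraries.

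*Hmox1* (chr8:75093621-75100589, plus strand) had the highest level of all members except in WT heart, where *Nfe2l2* was above it. It was at 223 FPKM in WT MEFs with DMSO and 151 FPKM with GSK126, and at 261 and 143 FPKM in KO-labelled MEFs. In the sorted *Dnmt3a* KO and *Dnmt3b* KO 2i-MEFs it was at 133 and 101 FPKM. Heart was lowest, with 20.4 and 25.8 FPKM in WT and KO-labelled tissue, and liver was at 147 and 111 FPKM. Macrophages also express *Hmox1*, and their 9 markers were all below 0 in log2 ratio in KO-labelled MEFs and liver against WT. The sum of these markers was 1880 FPKM in WT MEFs with DMSO, 1940 FPKM with GSK126, 1490 FPKM in KO-labelled MEFs with DMSO and 1360 FPKM with GSK126. By log2 ratio of GSK126 to DMSO, 5 of 9 were above 0 in WT MEFs (median 0.08). In KO-labelled MEFs 7 of 9 were above 0 (median 0.12), while *Lyz2* was at 802 FPKM with DMSO and 638 FPKM with GSK126. In liver the 9 markers summed to 395 and 249 FPKM in WT and KO-labelled tissue, and in heart to 119 and 127 FPKM. Their part in the level of *Hmox1* was not tested.

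GSK126 was compared with DMSO to see which of these genes differ when EZH2 is inhibited, in each MEF genotype. *Bach2* was the 1 member of 7 past 2-fold (on FPKM + 1, in either direction) in WT MEFs, where 3.0% of 16896 genes with at least 1 FPKM in a library were past it. It was again the 1 member in KO-labelled MEFs, where 4.25% of genes were. Since *Bach2* was selected on these comparisons, its log2 ratios of FPKM + 1, 1.06 and 1.39, only describe it. Among all genes tested, 60 were at least 2-fold higher with GSK126 in both genotypes, which is 20.5% of those higher in WT and 21.9% of those higher in KO-labelled MEFs. *Maff* had a log2 ratio of 0.73 in WT MEFs, a fold of 1.73 (interval 1.3 to 2.35), and of -0.89 in KO-labelled MEFs, a fold of 0.522 (0.424 to 0.643). For *Mafg* these folds were 1.35 (1.09 to 1.69) and 0.801 (0.674 to 0.95), and for *Mafk* 1.39 (1.25 to 1.54) and 0.767 (0.704 to 0.838). The small Maf genes were thus higher with GSK126 in WT and lower with it in KO-labelled MEFs, by more than counting error. *Hmox1* was lower with GSK126 in both, at 0.678-fold (0.651 to 0.706) in WT and 0.546-fold (0.527 to 0.567) in KO-labelled ones. *Bach1* was at 0.926-fold (0.861 to 0.995) and 0.805-fold (0.749 to 0.865). The summed level of the fibroblast markers was lower with the inhibitor as well, with 6 of 8 genes below 0 in log2 ratio in WT and 7 of 8 in KO-labelled MEFs, and stood at 12200 and 9120 FPKM with DMSO and GSK126 in WT MEFs and at 9470 and 6160 FPKM in KO-labelled MEFs, and their part in these values was not tested. *Nfe2l2* differed least, at 0.987-fold (0.931 to 1.05) in WT and 1.1-fold (1.05 to 1.17) in KO-labelled ones.

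**Figure D3:**
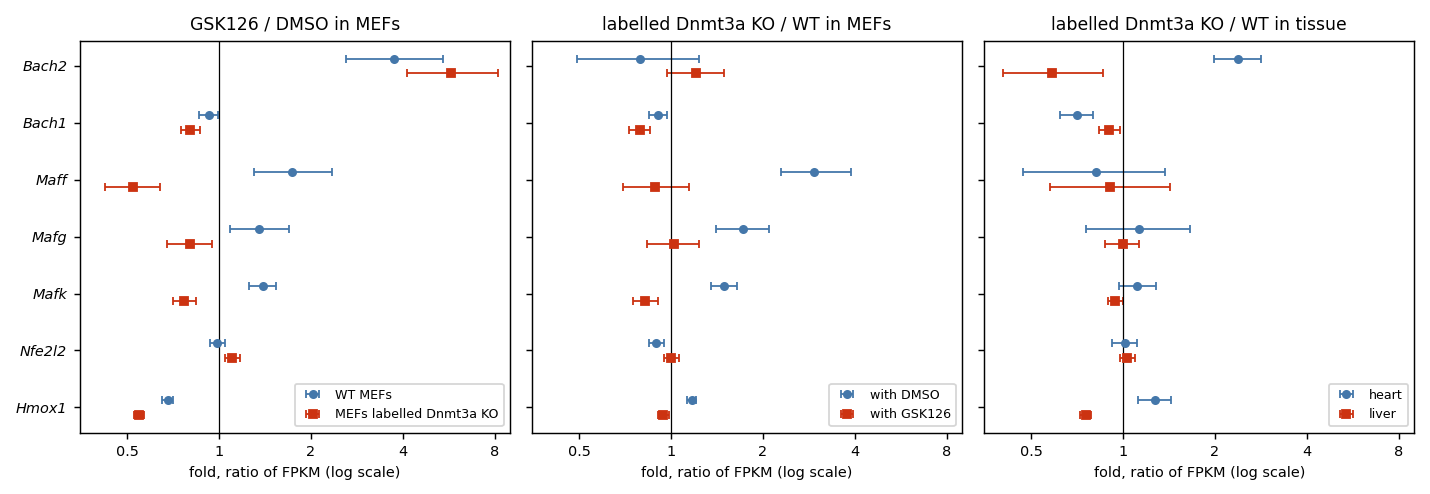
Fold of each member (ratio of FPKM, log axis) with its exact 95% interval for counting error: GSK126 over DMSO in both MEF genotypes (left), KO-labelled over WT in MEFs (middle), and the same in heart and liver (right), 1 library per condition. *Maff*, *Mafg* and *Mafk* lie right of 1 in WT MEFs and left of 1 in KO-labelled MEFs, while *Hmox1* lies left of 1 in both.

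The same 4 libraries can be read by genotype, so these values are not independent of the last ones. With DMSO, *Maff* was the 1 member past 2-fold between KO-labelled MEFs and WT, against 5.07% of genes tested, with a log2 ratio of 1.46 and a fold of 2.95 (2.29 to 3.88). *Mafg* followed with 1.72-fold (1.4 to 2.1) and *Mafk* with 1.49-fold (1.35 to 1.64). *Hmox1* was 1.17-fold higher (1.13 to 1.21). *Bach2* was at 0.788-fold, and its interval (0.49 to 1.23) holds 1. With GSK126, 0 of 7 members were past 2-fold, against 4.69% of genes. *Maff* was then at 0.887-fold (0.694 to 1.14), *Mafg* at 1.02-fold (0.835 to 1.23) and *Bach2* at 1.21-fold (0.972 to 1.49), with intervals that hold 1. *Bach1* was lower, at 0.788-fold (0.73 to 0.85).

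In 2i-MEFs the comparison of *Dnmt3a* KO with *Dnmt3b* KO had 0 of 7 members past 2-fold, against 7.26% of genes tested. *Hmox1* was the only member whose counting interval left out 1, at 1.32-fold (1.23 to 1.42). The 9 macrophage markers were all above 0 in log2 ratio there, and their part in this value was not tested. *Bach2* was at 1.26-fold (0.818 to 1.92) on 58 and 39 reads, and a difference within that interval was not detectable at this depth. *Maff*, on 42 and 41 reads, was at 0.866-fold (0.546 to 1.36).

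In heart, *Bach2* was the 1 member past 2-fold between KO-labelled and WT tissue, against 3.3% of genes tested. Its log2 ratio was 1.03 and its fold 2.37, and it was selected on this value. *Bach1* was at 0.704-fold (0.622 to 0.793), opposite to its paralog. *Hmox1* was at 1.27-fold (1.12 to 1.43), while erythroid markers summed to 19900 and 14300 FPKM in WT and KO-labelled heart. *Maff*, *Mafg*, *Mafk* and *Nfe2l2* were between 0.815-fold and 1.13-fold, with intervals that hold 1. In liver from the same embryo numbers, 0 members were past 2-fold, against 2.89% of genes. *Bach2* was lower there, at 0.586-fold (0.403 to 0.857) on 47 and 81 reads, and *Hmox1* at 0.754-fold (0.723 to 0.786). B cell markers, which fetal liver holds, summed to 7.56 and 5.26 FPKM in WT and KO-labelled liver, with 6 of 7 below 0 in log2 ratio, and their part in the level of *Bach2* was not tested. In heart the B cell markers summed to 1.11 and 1.22 FPKM, with *Ms4a1* and *Rag1* listed at 0 in both libraries. Neural markers in heart were above 0 in log2 ratio for 5 of 7, with a median of 0.32 and sums of 6.04 and 8.71 FPKM in WT and KO-labelled tissue. Hepatocyte markers in heart were below 0 for 7 of 8, with a median of -0.85, 4 of them past 2-fold. Among them *Alb* was at 12.7 and 3.04 FPKM in WT and KO-labelled heart, *Afp* at 10.1 and 2.57 FPKM and *Apoa1* at 7.08 and 0.777 FPKM, while *Trf* was at 30.1 and 58.5 FPKM. The part of these markers in the level of *Bach2* was not tested. The WT liver also held skeletal muscle markers, which summed to 48.1 FPKM against 1.28 FPKM in KO-labelled liver. Cardiomyocyte markers summed to 61 against 8.82 FPKM, with *Actc1* at 48.5 and 3.97 FPKM. Of these 8 markers, 4 were below 0 and 3 above 0 in log2 ratio, with a median of -0.04. *Tnni3* went the other way, at 0.525 and 2.27 FPKM in WT and KO-labelled liver. Fibroblast markers were below 0 for 8 of 8 in liver, at 540 and 293 FPKM in WT and KO-labelled tissue. Their part in the liver values was not tested either.

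Between heart and liver, 35.9% of genes tested were past 2-fold in WT and 37.7% in KO-labelled organs, and 4 of 7 members were in each. *Bach2* was higher in heart, by 3.31-fold (2.56 to 4.37) in WT and 13.4-fold in KO-labelled organs, which include the heart that served to select it. *Mafg*, *Mafk* and *Hmox1* were lower in heart. In WT, *Mafg* was at 0.167-fold (0.125 to 0.222), *Mafk* at 0.231-fold (0.208 to 0.257) and *Hmox1* at 0.139-fold (0.127 to 0.152). *Nfe2l2* was at 0.558-fold (0.518 to 0.6) and *Maff* at 1.17-fold (0.738 to 1.84). The median log2 ratio of genes expressed in both organs was -0.1296 in WT, and centring on it changed none of these directions. Erythroid and macrophage markers were higher in liver as well, as given above, and their part in these values was not tested.

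Further genes of the network were taken from lists. The other cap'n'collar and large Maf factors (7 genes, of which 5 reached 1 FPKM) had 0 past 2-fold with GSK126 in WT and KO-labelled MEFs, beside 3.0% and 4.25% of all genes tested. *Nfe2*, the erythroid and megakaryocytic relative of NRF2, was at 271 FPKM in WT liver and 270 FPKM in KO-labelled liver, and at no more than 3.43 FPKM in any other library. It was past 2-fold in 2i-MEFs, at 0.319 FPKM with *Dnmt3a* KO against 2.03 with *Dnmt3b* KO, on levels near the filter. *Nfe2l3*, a further relative of NRF2, was higher in heart than in liver, at 4.26 against 0.191 FPKM in WT and 2.3 against 0.166 FPKM in KO-labelled organs. *Nfe2l1*, a broadly expressed relative, was at 139 to 235 FPKM in fibroblasts and at 43.1 to 91.0 FPKM in heart and liver, past 2-fold between KO-labelled heart (91.0 FPKM) and liver (43.1 FPKM). The genes whose proteins regulate the NRF2 and BACH1 proteins (8 genes, among them *Keap1*, the sensor that hands NRF2 to CUL3) also had 0 past 2-fold within MEFs, in 2i-MEFs or by genotype, where between 2.89% and 7.26% of all genes were. *Keap1* was at 33.3 and 31.8 FPKM in WT MEFs with DMSO and GSK126, and at 24.2 and 28.5 FPKM in KO-labelled MEFs. Between heart and liver, 2 of 8 were past 2-fold in WT and 1 of 8 in KO-labelled organs, beside 35.9% and 37.7% of all genes. *Btrc*, a ubiquitin ligase subunit, was lower in heart in both genotypes, by log2 ratios of -1.10 and -1.43, and *Syvn1* was in WT, by -1.01.

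The NRF2 antioxidant targets (19 genes, all reaching 1 FPKM) had a median log2 ratio of -0.24 with GSK126 in WT MEFs, where 16 of 19 were below 0, beside 0.00 for all genes tested. In KO-labelled MEFs the median was 0.07, with 8 of 19 below 0, beside -0.02. One target was past 2-fold with GSK126, *Osgin1*, an oxidative stress-induced growth inhibitor, at 4.41 FPKM with DMSO and 1.60 FPKM with GSK126 in WT, 1 of 19 beside 3.0% of all genes tested. In KO-labelled MEFs 0 of 19 were, beside 4.25%. *Gclm*, the modifier subunit of the enzyme that starts glutathione synthesis, was at 77.9 and 39.8 FPKM with DMSO and GSK126 in WT MEFs, and at 66.4 and 59.6 FPKM in KO-labelled MEFs. By genotype, the median was -0.23 with DMSO (15 of 19 below 0) and 0.09 with GSK126 (6 of 19 below 0), beside 0.02 and 0.00 for all genes, from the same 4 libraries. In the comparison with DMSO, the macrophage markers were below 0 for 9 of 9 (median -0.6) and the fibroblast markers for 7 of 8 (median -0.43). With GSK126 they were below 0 for 9 of 9 (median -0.51) and 8 of 8 (median -0.56). Their part in the values of the target lists was not tested. The median of the targets was 0.25 in *Dnmt3a* KO against *Dnmt3b* KO 2i-MEFs, beside 0.00 for all genes. *Osgin1* (4.01 against 1.39 FPKM) and *Gsta4*, a glutathione transferase (29.8 against 13.9 FPKM), were past 2-fold, beside 7.26% of all genes. The macrophage markers were above 0 for 9 of 9 there (median 0.46), and their part was not tested. In heart the median of the targets was 0.07. *Srxn1*, the sulfiredoxin gene, at 9.80 FPKM in KO-labelled tissue against 3.99 FPKM in WT, was the 1 target past 2-fold, beside 3.3% of all genes. In liver it was 0.18, beside -0.06 for all genes, and 0 targets were past 2-fold, beside 2.89% of all genes. Hepatocyte markers summed to 23700 and 14300 FPKM in WT and KO-labelled liver (median log2 ratio -0.29), the erythroid markers went the other way in sum, and their part was not tested. Heart was below liver for 16 of 19 targets in WT, with a median of -1.46, beside -0.01 for all genes. Of the 19, 12 were past 2-fold lower and 2 past 2-fold higher, beside 35.9% of all genes in either direction. *Osgin1* (0.643 against 17.0 FPKM), *Gstm1* (23.8 against 177 FPKM), *Gclm* (61.6 against 446 FPKM) and *Gclc* (3.89 against 28.1 FPKM) were the farthest. The 2 higher in heart were *Me1* (17.1 against 4.56 FPKM) and *Gsta4* (52.6 against 24.8 FPKM).

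**Figure D4:**
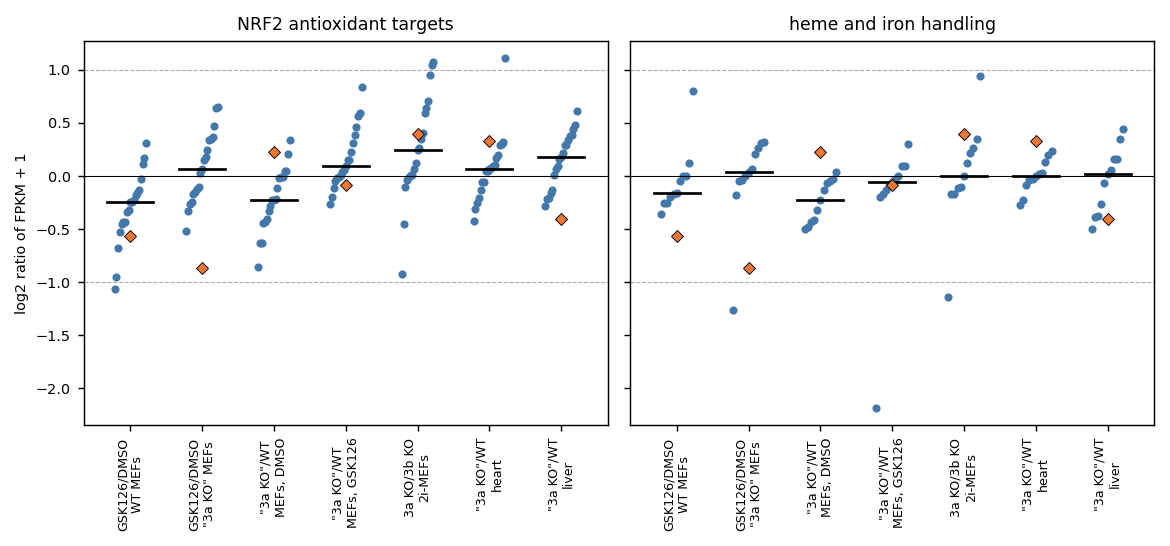
Log2 ratio of FPKM + 1 of each NRF2 antioxidant target (left, 19 genes) and each heme and iron gene (right, 11 genes) in 7 comparisons; blue points are genes, black lines the median, the orange diamond *Hmox1* for reference, and dashed lines mark 2-fold. The targets have a median of -0.24 with GSK126 in WT MEFs and 0.07 in KO-labelled MEFs, while *Hmox1* is at -0.56 and -0.87.

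The heme and iron genes (11 in the table, 10 reaching 1 FPKM) had medians of -0.16 and 0.04 with GSK126 in WT MEFs and KO-labelled MEFs. By genotype the median was -0.23 with DMSO, where 10 of 11 were below 0, and -0.06 with GSK126, beside the same medians of all genes and the same shifts of macrophage and fibroblast markers. The gene past 2-fold in fibroblasts was *Slc40a1*, which encodes the iron exporter ferroportin. In WT MEFs it was at 38.8 FPKM with DMSO and 68.3 FPKM with GSK126, and in KO-labelled MEFs at 35.4 and 14.3 FPKM, so it went opposite ways. By genotype its log2 ratio was -2.18 with GSK126. It was the 1 gene of 11 past 2-fold with GSK126 in KO-labelled MEFs (4.25% of all genes), by genotype with GSK126 (4.69%) and in 2i-MEFs (7.26%). In 2i-MEFs it was at 18.3 FPKM with *Dnmt3a* KO and 41.5 with *Dnmt3b* KO. *Fth1*, the ferritin heavy chain gene, was at 3370 and 2930 FPKM in WT MEFs with DMSO and GSK126, and at 2380 and 2760 FPKM in KO-labelled MEFs. Between WT heart and liver, 8 of these 11 genes were past 2-fold lower in heart, in a comparison in which 35.9% of all genes tested were past 2-fold and 3068 of 16896 were lower. The farthest were *Blvrb*, a biliverdin reductase, at 88.1 against 1520 FPKM, *Slc40a1* at 13.4 against 162 FPKM, *Fech*, the last enzyme of heme synthesis, at 42.6 against 375 FPKM, and *Spic*, a factor of iron-recycling macrophages, at 0.0456 against 5.87 FPKM. In KO-labelled organs, where 37.7% of all genes were past 2-fold, 8 were lower in heart, with *Blvrb*, *Fech*, *Slc40a1* and *Spic* again the farthest, and *Alas1*, the first enzyme of heme synthesis, was higher, at 113 against 40.6 FPKM. Erythroid and hepatocyte markers were each past 2-fold lower in heart for 8 of 8 in both genotypes. Their median log2 ratios in WT were -4.82 and -7.58, and their part in these values was not tested.

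The lymphocyte genes with which BACH2 acts were mostly low (6 genes, of which 2 reached 1 FPKM). *Prdm1*, the plasma cell regulator that BACH2 represses in B cells, was at 0.432 and 0.386 FPKM in WT MEFs with DMSO and GSK126, at 0.185 and 0.551 FPKM in KO-labelled MEFs, and at 0.387 and 0.420 FPKM in WT heart and KO-labelled heart. *Pax5*, *Irf4* and *Ikzf3* were below 0.2 FPKM in each library. *Bcl6*, a repressor of germinal centre B cells that fibroblasts also express, was at 5.50 to 8.16 FPKM in fibroblasts. *Ebf1*, which also marks stromal cells, was at 34.7 FPKM with *Dnmt3a* KO and 14.9 with *Dnmt3b* KO in 2i-MEFs, the one gene of 6 past 2-fold there, beside 7.26% of all genes. The B cell markers summed to between 0.174 and 1.60 FPKM in fibroblasts.

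Around *Bach2*, 24 rows lie within 500 kb of its row, of which 9 reached 1 FPKM. *Bach2os*, an antisense RNA inside the *Bach2* row (chr4:32559680-32571708, minus strand), was at 0.267 FPKM with DMSO and 1.52 FPKM with GSK126 in WT MEFs, and at 0.724 and 0.972 FPKM in KO-labelled MEFs. It was at 0.68 FPKM in WT heart and 1.20 FPKM in KO-labelled heart, and at 2.23 and 0.642 FPKM in liver. The kit was stranded, but whether reads were counted by strand is not given in the sources used here, so reads of *Bach2* and *Bach2os* may not be told apart. *Rragd*, which encodes a Rag GTPase of lysosomal amino acid sensing, was at 5.06 and 3.82 FPKM with DMSO and GSK126 in WT MEFs, but at 2.39 and 8.16 FPKM in KO-labelled MEFs. *Gm11942* was at 4.99 and 1.78 FPKM in WT MEFs, and at 1.89 and 3.59 FPKM in KO-labelled MEFs. The other neighbours, *Map3k7*, *Casp8ap2*, *Mdn1*, *Lyrm2*, *Ankrd6* and *Ube2j1*, had log2 ratios between -0.75 and 0.38 in these comparisons. In the comparison of hearts, *Mdn1*, a ribosome assembly factor, had the largest log2 ratio of the neighbours, 0.72, from 1.31 FPKM in WT to 2.81 FPKM in KO-labelled heart.

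**Figure D5:**
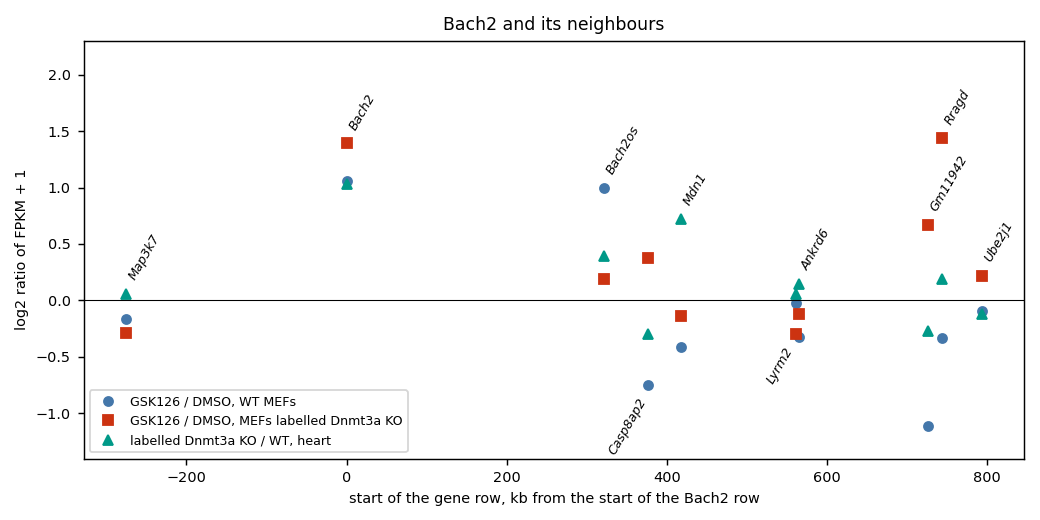
Log2 ratio of FPKM + 1 of *Bach2* and of the 9 neighbouring genes that reached 1 FPKM, against the distance of each row's start from that of *Bach2* (kb), for GSK126 in both MEF genotypes and for heart. *Bach2* is at 1.06, 1.39 and 1.03, and *Rragd* at 1.44 in KO-labelled MEFs with -0.33 in WT MEFs.

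The genes whose levels were most like *Bach2* were found by Pearson's correlation of log2(FPKM + 1) over the 10 libraries, which include pairs from the same cells or embryo and differ in tissue and strain. The levels of *Bach2* in MEFs and heart that served to select it enter these correlations, which therefore only describe it. Among the 5 highest were *Gm10549* (0.918), *Tbc1d22b* (0.895), *Aldoc* (0.889) and *Arhgef26* (0.883). Of these, *Aldoc*, the brain-type aldolase gene, was also the highest by Spearman's correlation (0.952). It was at 5.91 and 13.4 FPKM with DMSO and GSK126 in WT MEFs, at 5.31 and 25.9 FPKM in KO-labelled MEFs, at 15.9 and 19.7 FPKM in WT heart and KO-labelled heart, and at 5.88 and 5.67 FPKM in liver. *Tbc1d22b* varied little, from 5.99 to 9.53 FPKM, and *Gm10549* was at 0 in 4 libraries. Among the members, the correlation with *Bach2* was negative for all 6, from -0.248 for *Maff* to -0.748 for *Mafg* and *Hmox1*. These signs rest in part on the difference between tissues: over the 6 fibroblast libraries alone, the correlation was 0.033 for *Mafg*, -0.034 for *Mafk* and 0.189 for *Nfe2l2*, and -0.623 for *Hmox1* and -0.684 for *Bach1*.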

How the data were processed

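RNA-seq was analysed in 10 libraries. The other 16 samples, of DNA methylation, were left out. Per the study's methods, RNA was sequenced as 75 bp single reads from poly-A libraries, and the authors used cutadapt for trimming, aligned to mm10 by TopHat2 and Bowtie2 on GENCODE M15, kept uniquely mapped reads (MAPQ of at least 20) and deposited FPKM values from Cufflinks. The submitters' processing notes list TopHat2 2.1.0, Bowtie2 2.2.5 and 2.2.8, cutadapt 1.9.1 and Cufflinks 2.2.1, and the methods name other versions of all but Cufflinks. No counts or scaling between libraries were used.

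The table has 52609 rows, of which 155 repeat a symbol and were summed. A gene was tested if it reached 1 FPKM in at least 1 library (16896 genes). Differences are log2 ratios of FPKM + 1, which understate those of low genes, and a gene was counted from 2-fold on; folds in the text are ratios of FPKM unless a log2 ratio is given. With 1 library per condition no test was run. Single-transcript genes of 1500 bases or more (GENCODE M21) gave the depth: between 97.9% and 99.1% of values under 10 reads fell within 0.1 of a whole read at a fragment length of 202 bases, against 20% for uniform values. Reads of a gene with several transcripts depend on the length assumed. The estimate and the intervals were tested on simulated data.

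The members and gene lists were chosen with earlier results of these data known. Named genes are the members, the list genes past 2-fold in a comparison that the text counts (at most 4 per list and comparison), the 5 genes most like *Bach2* (1 of them is not reported here), the neighbours that reached 1 FPKM, and genes that check the labels. *Gclm*, *Keap1*, *Fth1*, *Nfe2l1*, *Prdm1*, *Bcl6*, *Pax5*, *Irf4*, *Ikzf3* and the markers were named outside that rule after their values were seen. Alternatives were a pseudocount of 0.1, centring on the median of expressed genes, no filter on low values, the row with the highest mean per symbol, a 1.5-fold threshold, targets with a mean of at least 1 FPKM, Spearman's correlation, fibroblasts alone and, added after the data were seen, no pseudocount. Scripts ran in Python 3.11.15 with numpy 2.4.6 and scipy 1.17.1. Promoter windows came from RefSeq tables for GRCm38.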

Additional observations from a re-analysis of the deposited data

Results flagged for a closer look

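Several members had ratios in opposite directions under the same contrast, with both counting intervals leaving out a ratio of 1. With 1 library per condition, none of these differences was tested. With GSK126 against DMSO, the log2 ratio of FPKM + 1 was 0.73 in WT MEFs and -0.89 in MEFs labelled *Dnmt3a* KO for *Maff*, the stress-inducible small Maf gene. It was 0.41 and -0.31 for *Mafg*, and 0.44 and -0.36 for *Mafk*. Read by genotype, the same 4 libraries gave *Mafk* a log2 ratio of 0.54 with DMSO and -0.27 with GSK126, and *Hmox1* a log2 ratio of 0.23 with DMSO and -0.08 with GSK126. Between the libraries labelled *Dnmt3a* KO and WT, *Bach2* was at 1.03 in heart, the value on which it was selected, and at -0.33 in liver. *Hmox1* was at 0.33 in heart and -0.4 in liver.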

How the results depend on the processing

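No paired analysis was run because no result comes from a test, and an additive fit over both genotypes or both embryos was not run. Each ratio of heart to liver is within 1 embryo number, and each ratio of GSK126 to DMSO within 1 genotype. The 63 log2 ratios of the members kept their sign with a pseudocount of 0.1, with none, and with the row of the highest mean per symbol. Centring on the median of expressed genes turned 1 of 63, *Mafg* in liver (0.07 in place of -0.01). The log2 ratio of *Bach2* depends on the pseudocount: with 0.1 it was 1.76 for GSK126 in WT MEFs, 2.31 in MEFs labelled *Dnmt3a* KO, 1.63 for heart against liver in WT and 3.53 in the libraries labelled *Dnmt3a* KO, and with no pseudocount it was 1.91, 2.52, 1.73 and 3.74. At a 1.5-fold threshold, 2 members (*Bach2* and *Maff*) passed for GSK126 in WT MEFs, 3 (with *Hmox1*) in MEFs labelled *Dnmt3a* KO, and 2 (*Maff* and *Mafg*) by genotype with DMSO, each against 1 at 2-fold. With a pseudocount of 0.1, the genes past 2-fold numbered 1605 (main 507) for GSK126 in WT MEFs and 1972 (718) in MEFs labelled *Dnmt3a* KO. By genotype they numbered 2247 (857) with DMSO, 2198 (792) with GSK126, 1795 (558) in heart and 1626 (489) in liver, and in 2i-MEFs 2810 (1226). Of the 5 genes most like *Bach2*, 1 was among the first 5 by Spearman's correlation and 0 among those from fibroblasts alone. The medians of the NRF2 targets kept their sign under their alternatives. Depth limits *Bach2* and *Maff* in 2i-MEFs, with 39 to 58 reads each, and no alternative can stand in for a second library.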
